A study of Mus musculus with 2 samples.

Results

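Genes of the retinoic acid pathway were examined in single-cell RNA-seq data of eYFP+ cells sorted from the stromovascular fraction (SVF) of mouse perigonadal white adipose tissue (gWAT). The 9 genes were chosen by name from the 32285 genes of the deposited tables: Rbp4, Rdh10, Aldh1a1, Aldh1a2, Aldh1a3, Crabp2, Rarb, Rarres1 and Rarres2, and all 9 were found. Their levels were measured in each cell type and compared between 2 libraries, 1 from mice on a low-fat diet (LFD, D12450J, 10% fat) and 1 from mice on a high-fat diet (HFD, D12492, 60% fat).

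All mice were Cyp1a1Cre x R26LSL-eYFP males fed their diet for 12 weeks, and both groups received FICZ, a ligand of the aryl hydrocarbon receptor, at 10 mg/kg 5 days before gWAT was collected. In this fate reporter, Cre is driven by Cyp1a1, so eYFP marks every cell in which Cyp1a1 has ever been active, and cells without that history were not sampled. Live (DAPI-) cells were sorted, and the study describes each library as a pool of mice, so cells could not be traced to an animal. Each diet had 1 library and therefore no replicate, and the diets could not be tested against each other: each ratio given here is between a pair of libraries, and its 95% interval covers counting error only, not differences between mice, sorts or library preparations.

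Retinoic acid is made from vitamin A inside cells. Retinol is carried in blood by RBP4, oxidised to retinaldehyde by dehydrogenases such as RDH10, and oxidised further to retinoic acid by the ALDH1A enzymes. CRABP2 delivers retinoic acid to nuclear receptors (RAR), which bind response elements at target genes, and the CYP26 enzymes break it down. In adipose tissue the pathway is best known for restraining the differentiation of precursor cells into adipocytes, and in the mesothelium Aldh1a2 is a long-known marker gene.

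Rarb, the gene of a retinoic acid receptor, is itself a textbook target of the pathway, and its promoter is shown because a repeat of the kind that RAR binds can be read in it. The upstream windows below come from RefSeq (assembly GRCm38.p6), 250 bases ending at a start site, printed in the direction of transcription. Capitals mark a DR5 element, a direct repeat of hexamers with 5 bases between them, searched on both strands. The hexamers searched, in any pairing, were AGGTCA and its variants AGTTCA and GGGTCA and also GGTTCA. Cyp26a1, which encodes a retinoic acid-degrading enzyme, is shown beside it because it is the other gene of the retinoid lists with a match. On its printed strand the capitals are the reverse complement of the repeat.
Rarb, chr14:16575477-16575726, minus strand: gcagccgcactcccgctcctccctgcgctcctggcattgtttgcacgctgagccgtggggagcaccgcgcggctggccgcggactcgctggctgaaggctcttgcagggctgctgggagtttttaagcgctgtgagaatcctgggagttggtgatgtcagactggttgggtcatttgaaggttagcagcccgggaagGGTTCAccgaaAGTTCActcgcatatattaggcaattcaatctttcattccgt
Cyp26a1, chr19:37697558-37697807, plus strand: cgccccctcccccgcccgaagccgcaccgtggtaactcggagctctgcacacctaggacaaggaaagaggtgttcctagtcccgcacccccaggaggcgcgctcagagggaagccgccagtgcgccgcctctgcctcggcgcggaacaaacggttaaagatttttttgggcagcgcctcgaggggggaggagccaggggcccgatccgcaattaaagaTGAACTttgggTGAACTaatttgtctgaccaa

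The Rarb repeat lay at chr14:16575513-16575529 and the Cyp26a1 repeat at chr19:37697776-37697792. Of 32851 promoter windows of 300 bases in the same table, 32 (0.0974%) held a DR5 match. Promoters were matched for 5 of the 9 genes (Aldh1a1, Aldh1a2, Rbp4, Rarres1 and Rarb) and for 40 of the 51 other genes of the retinoid lists, and 1 gene of each set had a match. The same hexamers with 2 bases between them (DR2) occurred in 88 windows (0.268%) and in none of the retinoid genes matched. A match is a description of these letters and was not tested as a binding site.

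The genes lie on 7 chromosomes of GRCm38 (GENCODE M21). Aldh1a1 is at chr19:20492715-20643465, Rbp4 at chr19:38116629-38125281, Aldh1a2 at chr9:71215789-71296243 and Aldh1a3 at chr7:66390890-66427517. Crabp2 is at chr3:87948666-87953376, Rarres1 at chr3:67478972-67515523, Rarres2 at chr6:48569696-48572789, Rdh10 at chr1:16105774-16133734 and Rarb at chr14:16430839-16819156. Each value counts unique molecular identifiers (UMIs) read near the 3′ end of a transcript, so isoforms and promoters were not separated. Aldh1a1 has a close paralog, Aldh1a7. Of 2058 different 90-base words in the last 500 bases of Aldh1a1 transcripts, 6 also occurred in Aldh1a7, which itself had 69 UMIs in LFD and 156 in HFD stromal cells. For Aldh1a3, 12 of 2017 such words also occurred in other genes (Casc4, Cflar and Gm26909). Rarb overlaps Top2b and Rarres2 overlaps Lrrc61, each on the opposite strand.

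The tables listed 11281 LFD barcodes with 114311020 UMIs in all, and 9631 HFD barcodes with 119498750. Filters on depth, mitochondrial RNA and doublets left 9294 LFD and 7879 HFD cells. The libraries shared 27 barcodes, 21 of them among kept cells. Cells fell into 15 clusters, formed without the retinoid genes. The 4 stromal clusters, with 5905 LFD and 4001 HFD cells, differed in depth, with a median of 12422 UMIs per cell in LFD and 16548 in HFD. They were a mesothelial-like cluster (1761 LFD and 1547 HFD cells, led by Upk3b, Msln and Krt19), an adipose precursor cell (APC)-like cluster (212 and 578 cells, led by Col14a1, Dpt and Clec3b), a proliferating cluster (904 and 566 cells) and the largest, of 3028 and 1310 cells. The largest had Wt1 at 302.5 UMIs per 1000000 UMIs of the cell type (CPM) in LFD and 335.5 in HFD but none of the listed markers among its 10 leading genes, so it was not named and is called Ereg/Itm2a-led after its first genes. The acute-phase gene Saa3 and the cytokine gene Csf3 were also among the 10. Wt1 was detected in all 4, at 194.0 CPM or more, and their markers overlapped, so the borders between them are not sharp. The other named cells were endothelial-like, macrophage-like, dendritic cell-like, B-like, plasma cell-like, T-like, ILC2-like and neutrophil-like.

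Stromal cells held nearly all of the RNA of 8 of the 9 genes in both libraries. Of all UMIs of each gene in kept cells, the stromal clusters held between 96.7% and 99.5% for these 8, while they held 80.3% of the UMIs of all genes in LFD and 67.1% in HFD. Rarres1, with 83.3% (78.8 to 87.1%) in LFD and 67.9% (62.9 to 72.6%) in HFD, did not leave that share of all genes, and most of its rest was in endothelial-like cells. Other genes of the pathway were not all stromal. Dhrs3, which reduces retinaldehyde to retinol, had a higher level in macrophage-like cells (253 and 307 CPM) than in all stromal cells (106 and 60.9 CPM). APC-like cells alone had 246 and 234 CPM. By UMIs, stromal cells held more Dhrs3, 8182 and 4092 against 628 and 1046 in macrophage-like cells. Rdh12, another retinaldehyde reductase, had 349 and 399 UMIs in B-like against 56 and 33 in all stromal cells. Each gene is compared here only with itself across cell types, since UMI counts of different genes are not on one scale.

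**Figure D1:**
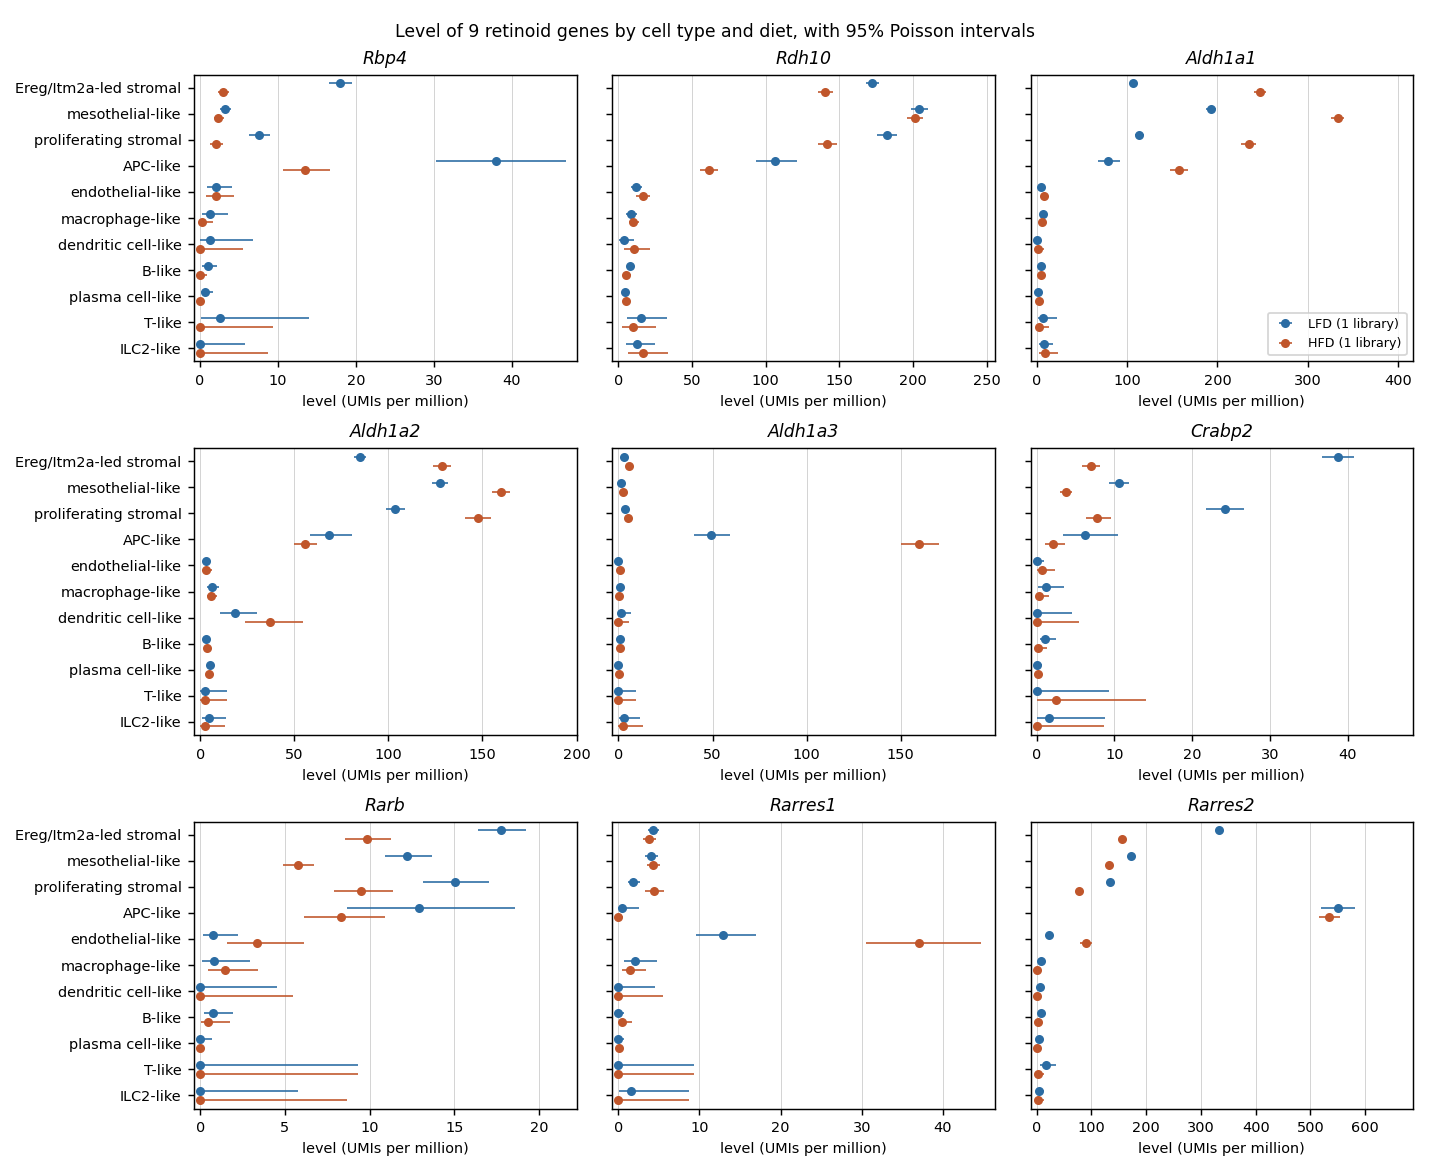
Level of each gene (horizontal axis, CPM, a separate linear scale per gene) in 11 cell types (vertical axis) for LFD (blue) and HFD (orange). Points are sums over 1 library and bars are exact 95% Poisson intervals; neutrophil-like cells, with 256303 and 89120 UMIs in all, are not drawn. The highest point of each gene lies in a stromal cluster, except for Rarres1, where it lies in endothelial-like cells.

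Rbp4, which encodes the carrier of retinol in blood, had its highest level in APC-like cells, at 37.9 CPM (95% interval 30.3 to 46.9) in LFD and 13.4 (10.7 to 16.7) in HFD. In the Ereg/Itm2a-led cluster it stood at 18.0 CPM in LFD and 2.95 in HFD. The proliferating cluster had 7.51 and 2.01 CPM and the mesothelial-like cluster 3.19 and 2.36 CPM. The HFD value was the lower in all 4, but not to the same degree. The HFD to LFD ratio was 0.164 (0.125 to 0.213) in Ereg/Itm2a-led, 0.268 (0.167 to 0.416) in proliferating and 0.354 (0.258 to 0.486) in APC-like cells. In mesothelial-like cells the interval of the ratio, 0.740 (0.525 to 1.04), included 1.

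Rdh10 encodes the enzyme of the first and rate-limiting oxidation. Its level was highest in mesothelial-like cells, at 204 CPM in LFD and 201 in HFD, with a ratio of 0.984 (0.947 to 1.02). In a finer clustering the keratin-rich mesothelial-like cluster had the highest level in LFD, at 254 CPM, but not in HFD. Its HFD level was 166 CPM, a ratio of 0.652, against 214 CPM in a stromal cluster led by Tesc. The proliferating cluster had 182 and 142 CPM and the Ereg/Itm2a-led cluster 172 and 140.5 CPM. Of the 4 stromal clusters, APC-like cells had the lowest level, and there the libraries stood furthest apart. The values were 107 CPM in LFD and 61.2 in HFD, for a ratio of 0.574 (0.487 to 0.678).

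Aldh1a1, an enzyme of the second oxidation and of other aldehydes, was higher in the HFD library in every stromal cluster. Its level in mesothelial-like cells was 193 CPM (188 to 199) in LFD and 333 (326 to 340) in HFD, for a ratio of 1.72 (1.66 to 1.78). The Ereg/Itm2a-led cluster went from 107 CPM in LFD to 247 in HFD, the largest ratio of the 4 at 2.32 (2.22 to 2.42). In proliferating cells the values were 114 and 234 CPM, a ratio of 2.06 (1.94 to 2.19), and in APC-like cells 79.4 and 157 CPM, a ratio of 1.98 (1.69 to 2.34). Of these 4, mesothelial-like cells stood highest and APC-like cells lowest with both diets, and the remaining 2 clusters lay close together and swapped places. Outside them, a cluster left unnamed for low depth or few markers (60 LFD and 89 HFD cells) had Aldh1a1 among its leading genes. It stood at 257 CPM (163 to 386) in LFD and 283 (191 to 404) in HFD, from 23 and 30 UMIs. With cells named one by one from their markers, the mesothelial-like ratio was 1.49.

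Aldh1a2, the retinaldehyde dehydrogenase of mesoderm and mesothelium, was again highest in mesothelial-like and lowest in APC-like cells among the 4 stromal clusters. The differences between libraries were smaller. Mesothelial-like cells had 127 CPM in LFD and 160.0 in HFD, for a ratio of 1.26 (1.20 to 1.32). The ratio was 1.51 (1.43 to 1.59) in Ereg/Itm2a-led cells, from 85.0 to 128 CPM, and 1.42 (1.33 to 1.52) in proliferating cells, from 104 to 148 CPM. APC-like cells went the other way, with 68.7 CPM in LFD and 55.7 in HFD, for a ratio of 0.811 (0.669 to 0.988).

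Aldh1a3, the third enzyme of this step, marked APC-like cells. Its level there was 49.1 CPM (40.3 to 59.1) in LFD and 159.9 (150.0 to 170.3) in HFD, for a ratio of 3.26 (2.67 to 4.01). No other named type or stromal cluster had more than 5.81 CPM. The Ereg/Itm2a-led cluster had 3.16 CPM in LFD and 5.81 in HFD, for a ratio of 1.84 (1.41 to 2.40) that turned to 0.811 with a stricter cell filter. In all stromal cells together the ratio was larger than in the clusters, 4.55 (4.02 to 5.18), and the make-up of the pool differed beside it: APC-like cells were 212 of 5905 stromal cells in LFD and 578 of 4001 in HFD. They held 34.5% of the gene's UMIs in LFD and 77.9% in HFD.

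Crabp2 encodes the binding protein that carries retinoic acid to its receptors. In LFD its level was highest in Ereg/Itm2a-led cells. It was 38.7 CPM (36.7 to 40.9) there in LFD and 6.96 (5.90 to 8.17) in HFD, for a ratio of 0.180 (0.151 to 0.213). Proliferating cells had 24.2 and 7.82 CPM, the highest HFD value, mesothelial-like cells 10.6 and 3.77, and APC-like cells 6.25 and 2.16, the last from 14 and 13 UMIs. The ratios in these 3 clusters lay between 0.323 and 0.356, and none of their intervals reached 1.

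Rarb, whose promoter is printed above, was lower in the HFD library in the same clusters. The level was 17.8 CPM (16.4 to 19.2) in LFD and 9.82 (8.55 to 11.2) in HFD in Ereg/Itm2a-led cells, for a ratio of 0.553 (0.471 to 0.647). Mesothelial-like cells had 12.2 and 5.76 CPM, a ratio of 0.472 (0.387 to 0.574), and proliferating cells 15.0 and 9.51 CPM, a ratio of 0.633 (0.503 to 0.793). For APC-like cells, with 29 and 50 UMIs, the ratio of 0.641 had an interval from 0.398 to 1.05. Of the other receptors of the list, the ratio in all stromal cells was 1.01 for both Rara and Rarg, 1.22 (1.09 to 1.36) for Rxra and 0.890 (0.823 to 0.962) for Rxrb. By cluster, Rara was at 1.49 (1.05 to 2.15) in APC-like and Rxra at 1.40 (1.07 to 1.84) in proliferating cells, and none of the 4 was past 1.5-fold in a stromal cluster.

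Rarres2 encodes chemerin, a secreted attractant of immune cells and an adipokine, and was first found as a gene induced by a synthetic retinoid. APC-like cells had the highest level and nearly the same in both libraries, 549.6 CPM (519 to 581) in LFD and 535 (516 to 553) in HFD, for a ratio of 0.973 (0.911 to 1.04). Elsewhere in the stroma HFD was lower. The values were 334 and 156 CPM in Ereg/Itm2a-led cells, a ratio of 0.467 (0.450 to 0.486), 135 and 77.0 CPM in proliferating cells, 0.572 (0.529 to 0.617), and 173 and 133 CPM in mesothelial-like cells, 0.769 (0.735 to 0.804).

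Rarres1, another gene named for its induction by a retinoid, was sparse in the stroma. The Ereg/Itm2a-led cluster had 4.29 CPM in LFD and 3.78 in HFD and the mesothelial-like cluster 4.03 and 4.28, and neither ratio left 1. In proliferating cells 29 UMIs (1.85 CPM) stood against 54 (4.35 CPM), a ratio of 2.36 (1.47 to 3.84). APC-like cells had 1 UMI in LFD and 0 in HFD, where a count of 0 allows a level of up to 0.498 CPM by 3 counts and 0.612 CPM by the exact 95% interval.

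**Figure D2:**
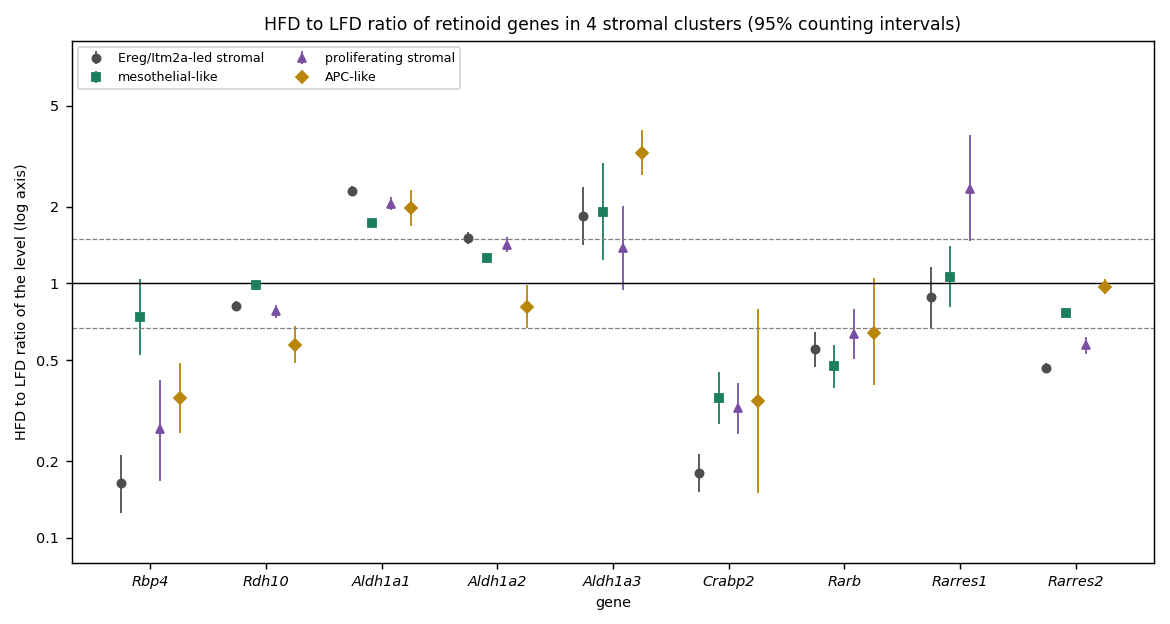
HFD to LFD ratio of the level (vertical axis, log scale) for each gene (horizontal axis, ordered from transport to target genes) in 4 stromal clusters, with 1 library per diet. Bars are exact 95% counting intervals, the solid line is a ratio of 1 and the dashed lines are 1.5-fold; Rarres1 is absent for APC-like cells because it had 1 UMI there. Aldh1a1 lies above the upper dashed line in all 4 clusters, while Crabp2 and Rarb lie below the lower one in all 4.

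A difference of 1.5-fold in either direction was counted for each gene with at least 20 UMIs over both libraries in a cell type. In Ereg/Itm2a-led cells 7 of the 9 genes passed it (Aldh1a1, Aldh1a2 and Aldh1a3 higher in HFD, Rbp4, Crabp2, Rarb and Rarres2 lower), against 17.9% of all genes counted the same way. In mesothelial-like cells 4 of 9 passed, against 15.2% of all genes, and in proliferating cells 6 of 9, against 15.4%. In APC-like cells 6 of 8 passed, against 24.8% of all genes. For all stromal cells together the count was 5 of 9, against 17.6% of all genes. The 9 genes were chosen with earlier results of these data known. No excess over all genes is therefore read from these counts. The median ratio of the genes was 0.815 in Ereg/Itm2a-led, 0.984 in mesothelial-like, 0.778 in proliferating and 0.726 in APC-like cells, where that of all genes was 1.05, 1.09, 1.09 and 1.08. Scaling by the median ratio instead of total UMIs moved log2 ratios by 0.13 in mesothelial-like and proliferating and by 0.11 in APC-like and all stromal cells. Of the 35 ratios in stromal clusters, 23 were past 1.5-fold, and relative to that median 22 were, since Aldh1a2 in Ereg/Itm2a-led cells then stood at 1.43.

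Markers of mesothelial cells moved with these ratios. In the Ereg/Itm2a-led cluster all 12 mesothelial markers of the list were higher in HFD, none was at 0, and their summed level was 338 CPM in LFD and 904 in HFD. Upk3b stood at 8.64 and 62.6 CPM, Krt19 at 13.6 and 54.6 and Msln at 5.57 and 12.2, while Pdgfra stood at 527 and 328 CPM. Of the 14 APC markers, which include Pdgfra, 9 were higher and 5 lower in HFD in this cluster, with a summed level of 36699 and 28940.4 CPM, and 11 were higher and 3 lower in mesothelial-like cells. The summed level of the mesothelial markers was 880.2 and 1573 CPM in proliferating and 1650 and 2538 CPM in mesothelial-like cells, with 11 of 12 markers higher in each. In APC-like cells it was 42.8 and 50.8 CPM, with 4 of 12 higher and 2 at 0 in each library. Mesothelial-like cells had more Aldh1a1 and Aldh1a2 and less Rbp4, Crabp2, Rarb and Rarres2 than Ereg/Itm2a-led cells in both libraries, and for these 6 the Ereg/Itm2a-led ratio ran toward the mesothelial-like level. For 2 genes it ran the other way: Aldh1a3 was lower in mesothelial-like cells (1.32 and 2.51 CPM, against 3.16 and 5.81) but higher in HFD, and Rdh10 was higher in them but lower in HFD, with a ratio of 0.815 (0.780 to 0.851) in Ereg/Itm2a-led cells. For the 6 genes that ran toward the mesothelial-like level, the HFD value in Ereg/Itm2a-led cells lay past the LFD value in mesothelial-like cells. For Aldh1a1 these were 247 and 193 CPM, for Crabp2 6.96 and 10.6 and for Aldh1a2 128.4 and 127.4. The summed mesothelial markers, 904 CPM in the former, stayed under the 1650 CPM of the latter. The part of the markers in the ratios was not tested.

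The stromal cells were also divided into 7 finer clusters, a division chosen after the values above were seen. Aldh1a1 was higher in HFD in 7 of 7 finer clusters, with ratios from 1.56 to 3.30, and no interval reached 1. Crabp2 was lower in 7 of 7, from 0.217 to 0.440, again with no interval reaching 1. Rarb was lower in 7 of 7, from 0.368 to 0.807, and in 5 the interval lay below 1. Rarres2 was lower in 7 of 7, with 6 intervals below 1, and stood at 0.973 (0.911 to 1.04) in the APC-like one. Rbp4 was lower in 6 of 7, with 6 intervals below 1, the exception being a keratin-rich mesothelial-like cluster with 8 and 13 UMIs. Other genes were mixed. Rdh10 was above 1 in 2 clusters and below it in 5, from 0.574 to 1.10, with no interval reaching 1. Aldh1a2 was above 1 in 6 and below it in the APC-like one, Aldh1a3 above 1 in 5 of 6 (3 intervals) and Rarres1 above 1 in 4 of 6 (2 intervals) and below it in 2 (1 interval). The summed level of the mesothelial markers was higher in HFD in each finer cluster too, with 183 and 536 CPM in the one led by Ptn and Itm2a and 3385 and 4771 CPM in the keratin-rich one.

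Of the 7 clusters the largest, led by Ptn and Itm2a (1877 LFD and 654 HFD cells), had the highest Aldh1a1 ratio, at 3.30. Its ratios of Crabp2 (0.217), Rarres2 (0.394) and Rbp4 (0.142) were the lowest. There Aldh1a1 was at 56.2 CPM in LFD and 186 in HFD, and Crabp2 at 55.5 and 12.1 CPM. Rarres2 was at 289.5 and 114 CPM and Rbp4 at 22.2 and 3.14 CPM. In LFD these cells had the lowest Aldh1a1 and the highest Crabp2 and Rarb level of the 7 clusters. At the other end, the keratin-rich cluster (314 and 302 cells) had the highest Aldh1a1, 244 and 408 CPM, and the highest Aldh1a2, 152 and 215 CPM.

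**Figure D3:**
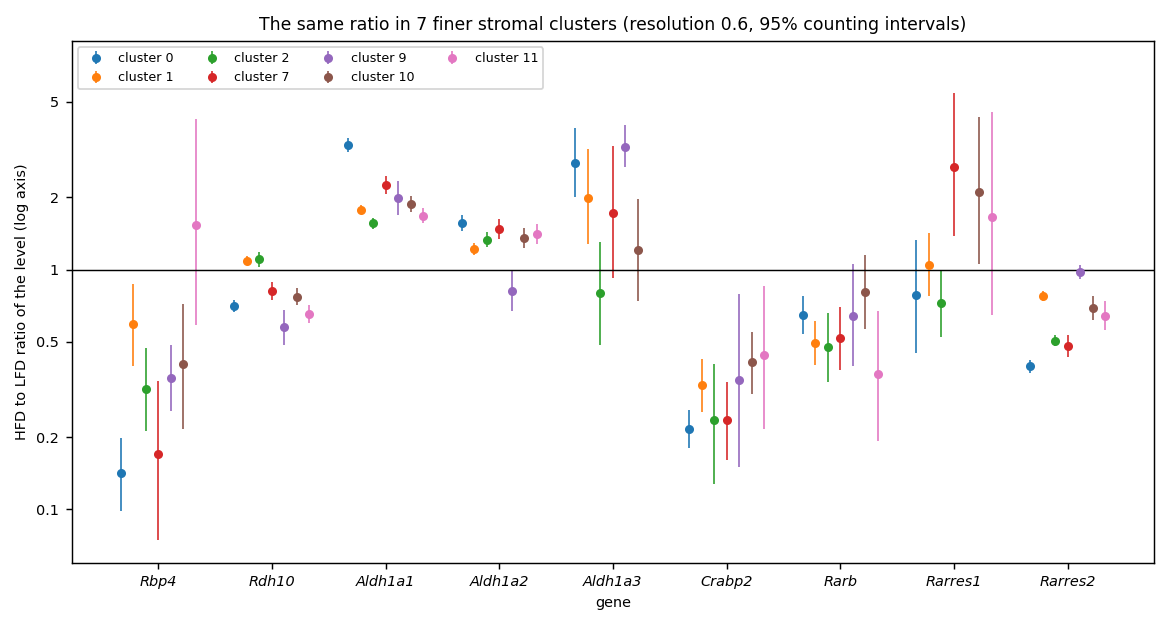
HFD to LFD ratio (vertical axis, log scale) of each gene (horizontal axis) in 7 finer stromal clusters, numbered as in the clustering, from 1 library per diet; bars are exact 95% counting intervals and the line is a ratio of 1. Cluster 0 is led by Ptn, 1 by Tesc and 2 by Enpp2, 7 and 10 are proliferating, 9 is APC-like and 11 is the keratin-rich cluster; genes with under 20 UMIs are left out. All 7 points of Aldh1a1 lie above the line and all 7 of Crabp2, Rarb and Rarres2 below it.

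Shares of cells with a UMI give the same genes per cell. They follow the mean level at a fixed depth, so they do not tell few expressing cells from many. Each cell was thinned to 2000 UMIs to set the libraries at one depth, which left out 20 LFD and 40 HFD stromal cells. At that depth 17.4% (16.1 to 18.8%) of Ereg/Itm2a-led cells had an Aldh1a1 UMI in LFD and 36.1% (33.4 to 38.7%) in HFD, against 53.1% and 89.3% without thinning. At least 1 of the 3 Aldh1a enzymes was seen in 30.6% and 50.8% of these cells, in 44.3% and 59.8% of mesothelial-like cells, in 32.5% and 50.7% of proliferating cells and in 28.2% and 45.9% of APC-like cells. Without thinning these shares were 76.9% and 95.6%, 94.0% and 98.7%, 86.1% and 98.4%, and 63.7% and 86.3%. The HFD share was the higher in each cluster either way.

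Aldh1a3 was seen in 10.7% (6.81 to 15.7%) of APC-like cells in LFD and 26.4% (22.8 to 30.3%) in HFD, and without thinning in 25.0% and 58.1%. Rarres2 was seen in 65.0% and 65.5% of the same cells at 2000 UMIs. Crabp2 was seen in 4.87% (4.13 to 5.70%) of Ereg/Itm2a-led cells in LFD and 0.847% (0.424 to 1.51%) in HFD. Rarb was seen in 3.74% and 1.54%, and Rarres2 in 47.5% and 24.7% of them. Without thinning the same shares were 14.1% and 5.19% for Crabp2, 16.6% and 13.1% for Rarb, and 89.4% and 76.2% for Rarres2, in cells with a median of 10751.5 UMIs in LFD and 16474.5 in HFD.

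Plasma cell-like cells, which should lack most of these genes, served as the background, although Aldh1a2 and Rdh10 in both libraries and Crabp2 in HFD were above the level of free stromal RNA in them. Rdh10 was at 4.42 and 5.28 CPM, where free RNA would give 2.67 and 1.48, and Crabp2 in HFD at 0.242 CPM from 5 UMIs, where it would give 0.0505. They had 12210 UMIs per cell (median) in LFD and 13597.5 in HFD before thinning. At 2000 UMIs, Aldh1a1 was seen in 1.01% and 0.586% of them, Rarres2 in 0.759% and 0.293%, Rdh10 in 1.27% and 0.952%, and Aldh1a3 in 0 of 395 and 0.147%. Crabp2 was seen in 0 of 395 and 0.0733%. Rarb was seen in 0 of 395 and 0 of 1365. A count of 0 allows a share of up to 0.930% of cells with a UMI among the 395 and 0.270% among the 1365 (exact 95% limits). Without thinning, 2.26% and 3.48% of plasma cell-like cells had an Aldh1a1 UMI and 4.77% and 1.81% a Rarres2 UMI. Each stromal share given above was higher than that of plasma cell-like cells in the same library. The Crabp2 share in HFD, 11 of 1298 cells, lies under the limit set by the 395 LFD plasma cell-like cells but not under that of the HFD ones.

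**Figure D4:**
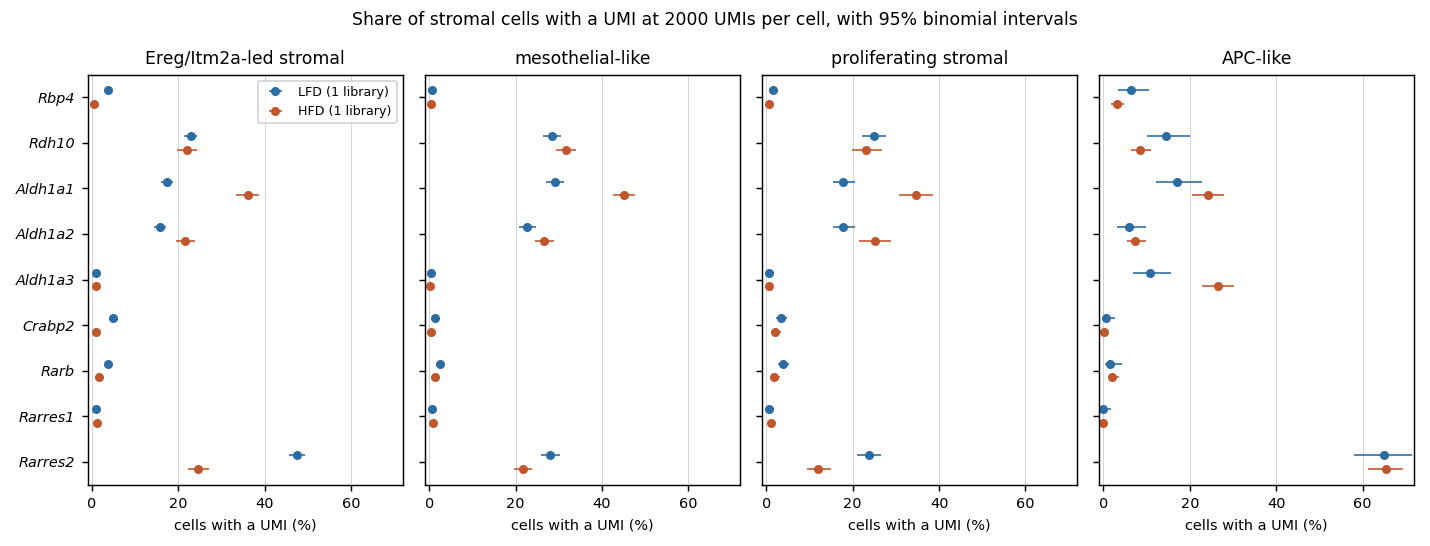
Share of cells with a UMI of each gene (horizontal axis, percent) after thinning each cell to 2000 UMIs, in 4 stromal clusters, for LFD (blue) and HFD (orange), 1 library each. Bars are exact (Clopper-Pearson) 95% binomial intervals. Aldh1a1 shares are higher in HFD in all 4 clusters, and Aldh1a3 is seen in over 2% of cells in APC-like cells only.

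Other genes of the pathway were counted from lists of 51 further genes, of which 49 were in the tables and 37 had at least 20 UMIs in stromal cells. Of these 37, 7 were past 1.5-fold higher in HFD and 3 lower, against 17.6% of all genes in either direction. The higher ones included the retinol dehydrogenases Adh7 (4.79 CPM in LFD and 18.1 in HFD, ratio 3.77), Adh1 (1.15 and 5.52 CPM, 4.81) and Dhrs9 (3.77 and 8.73 CPM, 2.32). The others were Fabp5, a fatty acid carrier that also binds retinoic acid (350.0 and 577 CPM, 1.65), the chemerin receptors Cmklr1 (5.06, from 13 and 57 UMIs) and Gpr1 (1.96, from 23 and 39 UMIs), and the retinaldehyde dehydrogenase Aldh8a1 (16 and 24 UMIs, with an interval that included 1). APC-like cells held 82 of the 89 LFD and 365 of the 371 HFD stromal UMIs of Adh1, and the ratio within them was 1.66 (1.30 to 2.13). Outside the stroma, endothelial-like cells had 58 and 134 Adh1 UMIs, at 14.9 and 44.8 CPM, a ratio of 3.00 (2.19 to 4.16). APC-like cells also held 4 of 13 and 47 of 57 stromal UMIs of Cmklr1, at 1.78 and 7.80 CPM, and the ratio within them was 4.37 (1.60 to 16.7). Most Cmklr1 was outside the stroma, in macrophage-like cells (206 and 180 UMIs, 83.1 and 52.8 CPM), where it was lower in HFD, at a ratio of 0.635 (0.517 to 0.780).

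The 3 lower genes encode enzymes that lower the supply of retinoic acid. Cyp26a1, whose promoter is printed above, had 2.01 CPM in LFD and 0.625 in HFD, for a ratio of 0.311 (0.215 to 0.439). Cyp26b1, which breaks down retinoic acid as well, had 4.05 and 1.73 CPM, a ratio of 0.426 (0.341 to 0.529). Dhrs3, which reduces retinaldehyde back to retinol, had 106 and 60.9 CPM, a ratio of 0.577 (0.556 to 0.599). All 3 are also on the list of genes known to respond to retinoic acid, of which 10 beyond the 9 genes described first were counted in stromal cells, with a median ratio of 0.788 and 0 past 1.5-fold higher. The 7 counted genes of the list of receptors and corepressors had a median of 1.01 and none was past 1.5-fold, and of the 5 counted genes of retinol transport and storage none was past it either. Of all genes in stromal cells 17.6% were past it and the median ratio was 1.08, so no difference from other genes is read from these counts.

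By cluster, Dhrs3 was lower in HFD in the Ereg/Itm2a-led (ratio 0.390), mesothelial-like (0.521) and proliferating (0.502) cells, and stood at 0.951 in APC-like cells. Adh7 was higher in the same 3 clusters, at 4.41, 3.5 and 3.31. Cyp26a1 was lower in them, at 0.431, 0.260 and 0.317. Cyp26b1 was lower in mesothelial-like (0.289) and proliferating (0.265) cells and stood at 0.976 in Ereg/Itm2a-led cells. In all, 5 of 33 other genes were past 1.5-fold higher and 3 lower in Ereg/Itm2a-led cells, 4 and 3 of 33 in mesothelial-like, 3 and 6 of 31 in proliferating and 3 and 1 of 26 in APC-like cells. Over all genes, 17.9%, 15.2%, 15.4% and 24.8% were past it in these clusters.

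Outside the stroma 5 genes reached the count minimum in endothelial-like cells, 672 in LFD and 676 in HFD, and 2 of them (Rarres1 and Rarres2) were past 1.5-fold, against 30.0% of all genes. Rarres1 had its highest level of all cell types there, 12.9 CPM (9.56 to 17.0) in LFD and 37.1 (30.5 to 44.7) in HFD, for a ratio of 2.88 (2.05 to 4.11) that was 11.8 with a stricter cell filter. Rarres2 was at 22.4 and 89.6 CPM, a ratio of 4.0 (3.13 to 5.15), and at 0.652 in a separate clustering without doublet removal. In that clustering 12 LFD and 75 HFD cells formed a mural-like cluster of their own, as 11 and 71 cells did at resolution 0.6 and 5 and 41 with the stricter filter. Markers of mural cells, the contractile cells around vessels, moved with Rarres2: Rgs5 stood at 72.9 and 399.7 CPM and Notch3 at 7.73 and 60.9 CPM in the cluster. All 10 mural markers of the list had a higher level in HFD, with a summed level of 179 CPM in LFD and 793 in HFD, and none was at 0.

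Cells of that cluster with a UMI of 3 or more of 10 mural markers numbered 19 in LFD and 95 in HFD. Rarres2 was at 421 CPM in LFD and 382 in HFD in these cells, and at 7.22 and 11.9 CPM in the remaining 653 and 581 cells. The ratio without them was 1.64 (0.932 to 2.89). Free stromal RNA in the whole cluster would give 7.71 CPM in LFD and 4.59 in HFD, an estimate not made for the remaining cells alone. Set against it, the remaining LFD level is at background and the HFD level of 11.9 CPM (7.88 to 17.1) lies above it. The cells with 3 or more mural markers had Pecam1 at 519 and 967 CPM, so endothelial and mural RNA were counted under the same barcodes. Rgs5 remained at 24.6 and 97.4 CPM in the cells with fewer mural markers. Rarres1 behaved differently: in the cells with fewer mural markers it stood at 13.4 and 40.2 CPM, a ratio of 3.01 (2.11 to 4.32).

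**Figure D5:**
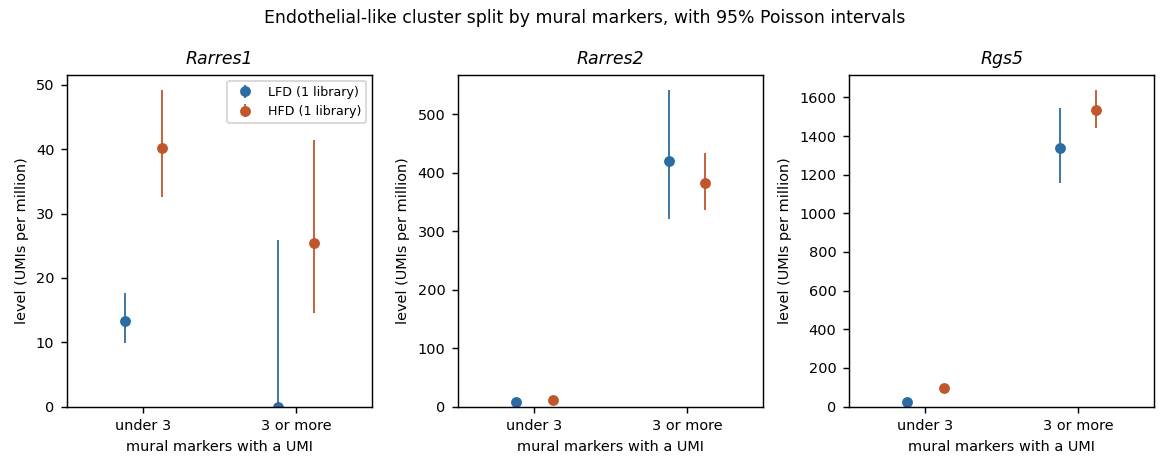
Level (vertical axis, CPM, linear from 0) of Rarres1, Rarres2 and the mural marker Rgs5 in endothelial-like cells with under 3 or with 3 or more of 10 mural markers (horizontal axis), for LFD (blue) and HFD (orange), 1 library each, with exact 95% Poisson intervals. Rarres2 lies at 421 and 382 in cells with mural markers and at 7.22 and 11.9 in the others, while Rarres1 is higher in HFD in the latter.

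In macrophage-like, B-like and plasma cell-like cells 4 genes each were counted and 1 each, Rarres2, was past 1.5-fold, against 17.5%, 17.5% and 17.1% of all genes. In macrophage-like cells it had 7.67 CPM in LFD and 0.587 in HFD, from 19 and 2 UMIs. Free stromal RNA, estimated from 10 stromal genes in the same cells, would give 9.44 and 2.16 CPM, so these values are read as background. The same holds for B-like cells, at 7.26 and 2.16 CPM with 6.69 and 2.70 from free RNA, and for plasma cell-like cells, at 4.03 and 1.31 CPM with 3.61 and 1.55.

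Some other values outside the stroma were above that background. Rdh10 was at 11.9 and 16.4 CPM in endothelial-like cells, where free RNA would give 5.69 and 4.37, and at 9.98 CPM in HFD macrophage-like cells, where it would give 2.06. Aldh1a2 in HFD macrophage-like cells was at 5.87 CPM (3.58 to 9.06), against 1.80, and it was further above in dendritic cell-like cells. In these 115 LFD and 84 HFD cells its level was 18.4 CPM (10.3 to 30.3) and 36.9 (23.9 to 54.5), from 15 and 25 UMIs, where free RNA would give 1.95 and 1.70 CPM. Some dendritic cells are known to make retinoic acid with this enzyme. Aldh1a1 had 0 and 1 UMI and Rarb 0 and 0 UMIs in the same cells. With under 100 HFD cells no ratio was computed. Plasma cell-like cells had Aldh1a2 at 5.18 and 4.46 CPM, where free RNA would give 1.49 and 1.29.

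For each gene, the 3 genes with the most similar levels over 12 cell types and 2 libraries were found among 12943 candidates by the Pearson correlation of 24 profiles of log2(CPM + 1). Genes of the marker and retinoid lists were not candidates, so a closer gene among them would not be named. Rdh10 and Aldh1a1, for example, correlated with each other at 0.961. Ptgis (0.972), Ildr2 and Ccdc80 came nearest to Rdh10, and Ildr2 (0.969), Ccdc80 and Tmeff2 to Aldh1a1. For Rarres2 they were Fkbp7 (0.971), Col6a3 and Sparc, for Aldh1a2 Mpp6 (0.955), Gpr39 and Ddr1, and for Aldh1a3 Il17d (0.918), Fibin and Epyc. Rbp4 was followed by Fxyd1 (0.914), Cthrc1 and Fgf2, Crabp2 by AI838599 (0.930), Gpbar1 and Slc17a8, Rarb by Frk (0.963), Sardh and Hoxc8, and Rarres1 by Sema3f (0.917), Gmpr and Lama5. The profiles share libraries and the contrast between stromal and immune cells, and the correlations are descriptions.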

How the data were processed

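The deposited matrices hold whole-number UMI counts of each gene in each barcode, which the authors made from 10x 3′ v3 libraries. Per the submitters' processing notes, bcl2fastq 2.17.1.14, Cell Ranger 4.0.0, STAR and Seurat 4.1.0 were used with build mm10. Gene positions were looked up in GENCODE M21 (GRCm38). Cells with at least 100 genes, 500 to 40000 UMIs and under 12.5% mitochondrial UMIs were kept, as in the study's methods. Doublets were scored per library with Scrublet (scanpy 1.11.5), and the highest-scoring 0.8% per 1000 barcodes, 922 LFD and 658 HFD cells, were removed. Libraries were integrated in Seurat 5.3.0 (R 4.3.3) on 1982 variable genes without the retinoid genes, with 30 components and resolution 0.3. Clusters were named from marker lists, and the ending -like marks names that have no other basis. The members and lists were chosen with earlier results of these data known.

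For each cell type, counts were added up over the cells of a library and given per 1000000 UMIs (CPM) with exact Poisson intervals. Ratios have exact conditional binomial intervals, and were computed for types with at least 100 cells in each library and genes with at least 20 counts over both. All 95% intervals cover counting error only. The levels of 0 were given an upper limit of 3 counts. Free RNA in non-stromal cells was estimated from 10 stromal genes. All 9 members were named, and other retinoid genes where they were past 1.5-fold or bear on a member. Per member the 3 genes with the most similar profile were named, among genes with at least 200 counts in no marker or retinoid list. Alternatives covered doublets, cluster resolution, the cell filter, per-cell marker calls, scaling, thinning and free RNA. Feature and barcode files hold names and no measurement.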

Additional observations from a re-analysis of the deposited data

Results flagged for a closer look

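The HFD to LFD ratio of Rarres2 was 4.0 in endothelial-like and 0.0765 in macrophage-like cells, 52.3 times apart and on opposite sides of 1, with counting intervals that did not overlap. The difference was not tested, since each diet had 1 library. The endothelial-like value moved with cells that held mural markers (1.64 without them, and 0.652, on the same side of 1 as in macrophage-like cells, in a clustering without doublet removal where mural-like cells formed their own cluster), and the macrophage-like value came from 19 and 2 UMIs at or under the level of free stromal RNA.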

How the results depend on the processing

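No paired analysis was possible because each diet had 1 library and the labels give no replicate numbers, so no library could be left out either. Of the ratios recomputed under the alternatives, 403 lay on the same side of 1 as first computed and 39 on the other. In Ereg/Itm2a-led cells Aldh1a3 turned from 1.84 to 0.811 with the stricter filter (at least 2000 UMIs, under 5% mitochondrial), which kept 2053 LFD and 2833 HFD cells. There Crabp2 was 0.229 as a mean of per-cell CPM, and Rarb was 0.467 with the stricter filter and 0.391 after thinning. In mesothelial-like cells Aldh1a1 was 1.56 without doublet removal, 1.49 with cells named one by one from markers, 1.57 with median-ratio scaling and 1.66 after thinning. Aldh1a2 there was 1.41 at resolution 0.6 and 1.15 with median-ratio scaling. Rdh10 there was 0.652 at resolution 0.6, 0.781 with cells named one by one, 0.899 with median-ratio scaling and 1.09 after thinning. With the stricter filter Rdh10 had 287 CPM in LFD and 145 in HFD, in 52 and 31 mesothelial-like cells, too few for a ratio. In the cells called APC-like one by one Aldh1a3 was 5.24 and Rarres2 0.70, but most of these came from the other stromal clusters (3614 Ereg/Itm2a-led, 2025 mesothelial-like and 925 proliferating against 781 of the APC-like cluster), so they are a mixed pool. In the APC-like cluster Rarres2 was 0.904 with median-ratio scaling. In endothelial-like cells Rarres1 was 11.8 with the stricter filter, and Rarres2 was 0.652 without doublet removal, where the cells were clustered anew and 12 and 75 mural-like cells stood apart, as did 5 and 41 with the stricter filter. Of the finer clusters, chosen after seeing the data as was the removal of cells with mural markers, the 1 led by Enpp2 and Cxcl13 had Aldh1a3 at 0.799 and the keratin-rich 1 had Rbp4 at 1.53, both against the direction in all stromal cells. Genes past 1.5-fold in all stromal cells numbered 2739, with 7600 without a count minimum and 1203 at 2-fold. The cell type with the highest level was another for Rarb at resolution 0.6 and for Crabp2 and Rarb with cells named one by one. The causes were not tested. Depth limits Aldh1a3, Rbp4, Crabp2, Rarb and Rarres1 most, with under 100 UMIs in at least 1 stromal cluster and library each.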

Other observations

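Endothelial-like cells also expressed other retinoid genes. Rbp7, a retinol-binding protein of capillaries, stood at 690.2 CPM in LFD and 764 in HFD, against 0.503 and 0.521 in all stromal cells. Cyp26b1 was at 24.5 and 7.36 CPM, a ratio of 0.301 (0.180 to 0.482), and was also lower in mesothelial-like cells (0.289). The chemerin receptor genes Ccrl2 (22 and 65 UMIs, ratio 3.84) and Gpr1 (3 and 17 UMIs, ratio 7.36) were higher in HFD. Ccrl2 was not particular to these cells: it stood at 5.67 and 21.7 CPM in them, at 589 and 920.1 in neutrophil-like cells, at 76.3 and 69.0 in macrophage-like cells and at 11.4 and 16.7 in all stromal cells. Mural markers were higher in the same cluster (summed 179 and 793 CPM), and without the cells that held 3 or more of them, a comparison chosen after seeing the data, the ratio was 3.99 for Ccrl2, 7.39 for Gpr1, 0.356 for Cyp26b1 and 1.20 for Rbp7. In all, 5 of 28 other retinoid genes counted in these cells were past 1.5-fold higher and 5 lower, and 30.0% of all genes were past it in either direction.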
